A study of Mus musculus with 2 samples.

Results

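Cx3cr1 encodes CX3CR1, the receptor for fractalkine, and was followed here through the cells of MC38 tumours, with the emphasis on the tumour's phagocytes. It is 1 of the 34290 genes listed in the deposited tables and was matched by its symbol (ENSMUSG00000052336). It was chosen because its level in phagocytes was already known to be lower in 1 library than in the other, so that difference is described below and was not tested. MC38 is a mouse colorectal cancer line. Single cells were taken from tumours 21 days after the cells had been engrafted into mice. The vector control group carried MC38 cells with a control vector, and the TMEM16F KO group carried MC38 cells in which TMEM16F, the phospholipid scramblase encoded by Ano6, had been knocked out. The knockout lay in the engrafted cells, the mice were otherwise untreated, and each group was 1 library. The strain, sex and age of the mice, the number of tumours in a library and the number of knockout clones were not given in the sources used here.

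CX3CR1 is a G protein-coupled receptor with a single chemokine ligand, CX3CL1. The ligand is made as a membrane protein with a chemokine domain on a mucin stalk, and the proteases ADAM10 and ADAM17 can release it from the cell surface. In mice CX3CR1 is a standard marker of microglia, of many tissue macrophages and of non-classical monocytes, is lower on classical monocytes, and is also carried by some effector T cells and NK cells.

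The gene lies on the minus strand of chromosome 9. The GENCODE M21 annotation of GRCm38 (mm10) gives it positions 119901616 to 120069879, because 1 transcript ends in a distant exon. The transcript Cx3cr1-201 and the RefSeq gene both span 120048683 to 120068296. The wider span contains or overlaps other genes, among them Csrnp1, Wdr48 and Gorasp1. Csrnp1 stood at 153 counts per 1e6 UMIs (CPM) in the vector control and 184 CPM in the TMEM16F KO phagocytes, Wdr48 at 11.2 and 10.3 CPM, and Gorasp1 at 3.27 and 2.80 CPM.

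The vector control library held 5253 cell barcodes and 46338994 unique molecular identifiers (UMIs, each marking 1 captured transcript), and the TMEM16F KO library 5993 barcodes and 49777630 UMIs. After filtering, 5028 and 5688 cells remained, with medians of 6019.5 and 5995 UMIs. The 2 libraries shared 10 barcodes. Shallow cells, with fewer than 2000 UMIs, were 20.5% of those in the former and 14.6% of those in the latter. By their markers 1 cell of the vector control and 0 cells of the TMEM16F KO library were called tumour epithelial, so the knockout could not be checked in the cells that carry it. Over all kept cells Ano6 stood at 28.7 CPM in the vector control library, against 33.3 CPM with the knockout. These are mostly immune cells of the mice, in which the gene was not knocked out. Fibroblasts or stroma had 61.8 and 43.9 CPM (ratio 0.709; 0.415 to 1.16), and whether MC38 cells are among them was not tested. The counted reads come from the 3′ end of the transcript, so in knocked-out cells too they need not vanish when the gene is disrupted upstream. With 1 library per group no difference between the groups has a replicate check, and a difference between the genotypes cannot be told apart from one between tumours or cell preparations. Every interval is a 95% interval for counting error only. Summed UMIs have exact Poisson intervals, ratios exact conditional binomial intervals, and shares of cells exact Clopper-Pearson intervals.

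Most Cx3cr1 transcripts sat in mononuclear phagocytes, the cells called from markers such as Csf1r, Lyz2, Cd68 and Adgre1. In the vector control library phagocytes made up 61.6% of the kept cells and held 90.2% of 2866 Cx3cr1 UMIs. In the TMEM16F KO library they made up 54.1% of the cells and held 68.2% of 1137 UMIs. Macrophage-like phagocytes, those in which markers such as C1qa, Apoe and Mrc1 clearly led those of monocytes, alone held 70.7% of the vector control's Cx3cr1 UMIs and 52.7% of those in the TMEM16F KO library. CD8 T cells held 6.56% of the UMIs in the vector control and 23.5% in the TMEM16F KO library, while they made up 14.2% and 16.5% of the cells.

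**Figure D1:**
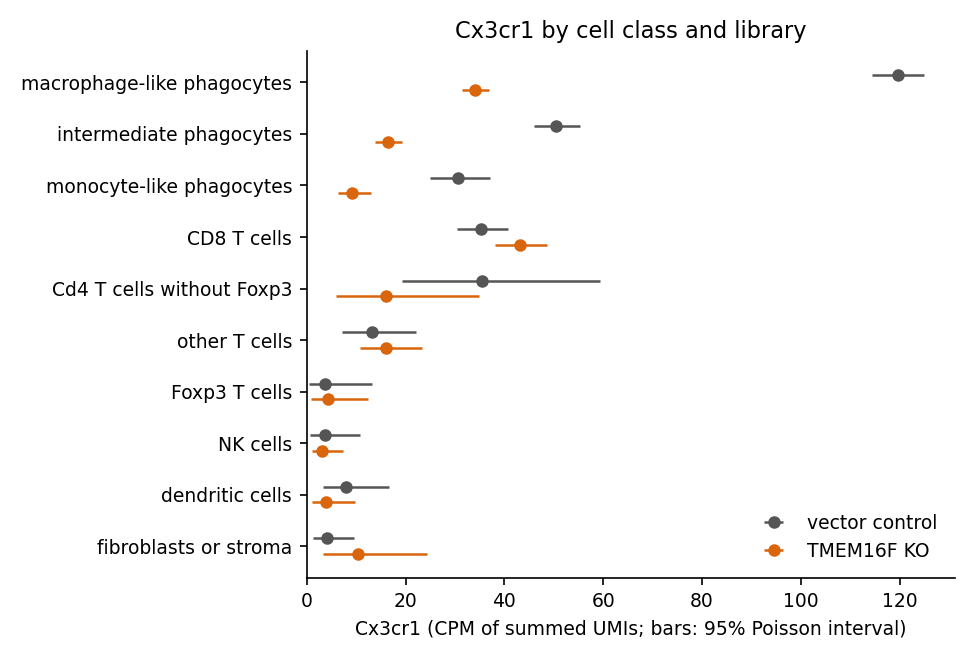
Cx3cr1 level (x axis, CPM of each class's pooled UMIs) in cell classes (y axis) of the vector control (grey) and TMEM16F KO (orange) libraries, 1 library each; bars are 95% Poisson intervals for counting error. The 3 phagocyte classes are lower in the TMEM16F KO library, macrophage-like cells at 34.0 against 119.6 CPM, while CD8 T cells stand at 43.2 against 35.3 CPM.

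In the vector control library macrophage-like phagocytes had the highest level of the main classes, at 119.6 CPM (114 to 125; 2027 UMIs in 1658 cells). Phagocytes between the macrophage-like and monocyte-like classes followed at 50.5 CPM (45.9 to 55.3; 935 cells). CD8 T cells stood at 35.3 CPM (30.4 to 40.7; 713 cells), Cd4 T cells without Foxp3 at 35.4 CPM (19.4 to 59.5; 14 UMIs in 75 cells), and monocyte-like phagocytes, marked by Ly6c2, Ccr2 and Plac8, at 30.6 CPM (25.0 to 37.0; 502 cells). These 3 neighbours in the order did not differ beyond their intervals. Other T cells were at 13.2 CPM (7.22 to 22.2) and dendritic cells at 8.05 CPM (3.23 to 16.6). Fibroblasts or stroma had 4.12 CPM (1.34 to 9.62; 5 UMIs), NK cells 3.70 CPM (3 UMIs in 128 cells) and Foxp3 T cells, the regulatory T cells, 3.67 CPM (2 UMIs in 100 cells). The intervals of these last 4 classes overlap. B cells, neutrophils, plasmacytoid dendritic cells and mast cells or basophils each had 1 Cx3cr1 UMI, and cells without a class stood at 14.7 CPM, against 11.6 CPM in the TMEM16F KO library.

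In the TMEM16F KO library CD8 T cells came first in that order, at 43.2 CPM (38.1 to 48.7; 267 UMIs in 941 cells), and macrophage-like phagocytes next, at 34.0 CPM (31.3 to 36.8; 599 UMIs in 1616 cells). Intermediate phagocytes were at 16.4 CPM (13.8 to 19.3; 937 cells), other T cells at 16.1 CPM (10.7 to 23.3), Cd4 T cells without Foxp3 at 16.0 CPM (5.88 to 34.9; 6 UMIs in 97 cells), and these 3 did not differ beyond their intervals. Stroma had 10.4 CPM (3.39 to 24.4; 5 UMIs), monocyte-like phagocytes 9.23 CPM (6.35 to 12.96; 33 UMIs in 522 cells), Foxp3 T cells 4.26 CPM (3 UMIs in 138 cells), dendritic cells 3.85 CPM (4 UMIs in 89 cells) and NK cells 3.16 CPM (5 UMIs in 234 cells). The plot of Cx3cr1 by cell class shows that the 3 phagocyte classes differ between the libraries by more than their intervals, and that the lymphocyte classes with low levels overlap.

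The phagocytes as a whole had 2584 Cx3cr1 UMIs in 3095 vector control cells and 776 UMIs in 3075 TMEM16F KO cells. This gave 88.0 CPM (84.7 to 91.5) and 25.9 CPM (24.1 to 27.8), 3.40-fold lower in the TMEM16F KO library (3.14 to 3.69). Their depth was similar, at medians of 7390 and 8081 UMIs per cell. Of the genes with at least 200 UMIs in phagocytes, 9604 in all, Cx3cr1 ranked 9 by how far its level was lower in the TMEM16F KO library. The rank was 14 with at least 100 UMIs, 38 with at least 20 UMIs and 1534 with no minimum. These are the values by which the gene was chosen.

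The difference was in how many phagocytes yielded a Cx3cr1 UMI and in how many UMIs those cells yielded. Without any correction for depth, 30.8% (29.2 to 32.5) of vector control and 11.9% (10.8 to 13.1) of TMEM16F KO phagocytes had at least 1 UMI. After each cell had been thinned at random to 3000 UMIs, with 838 and 492 shallower cells left out, the shares were 16.5% (15.02 to 18.1) of 2257 and 5.57% (4.72 to 6.53) of 2583 cells. The thinned cells with a UMI held on average 1.36 Cx3cr1 UMIs in the vector control and 1.201 in the TMEM16F KO library. Among them, 26.5% and 13.9% had at least 2. Phagocytes with at least 5 unthinned UMIs numbered 154 (4.98%) and 35 (1.14%), those with at least 10 numbered 27 and 5, and the highest single cells had 21 and 16. Cells with many Cx3cr1 transcripts were thus present in both libraries and were scarcer in the TMEM16F KO library.

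In droplet data a cell can catch free RNA of a gene it does not express. Foxp3 or Cd4 T cells, taken as a class that should largely lack the gene, had a thinned share of 6.48% (2.65 to 12.9; 108 cells) in the vector control and 2.80% (0.767 to 7.01; 143 cells) in the TMEM16F KO library, at median depths of 3694 and 3489 UMIs. In the vector control library their positive cells were nearly all Cd4 T cells without Foxp3 (6 of 46 thinned cells), with 1 of 62 Foxp3 T cells. Foxp3 T cells of the TMEM16F KO library had a UMI in 0 of 90 thinned cells, which allows a share of up to 3.33% when a count of 0 is taken to allow 3 (the Clopper-Pearson limit is 4.02%). Thinned NK cells had one in 0 of 82 cells of the vector control, which allows up to 3.66% in the same way (Clopper-Pearson limit 4.399%), and in 0.578% of 173 cells of the TMEM16F KO library. The thinned share of macrophage-like cells was 22.5% (20.2 to 24.9) in the vector control, above that of the Foxp3 or Cd4 T cells. In the TMEM16F KO library it was 7.42% (6.09 to 8.92), and its interval overlaps that of the Foxp3 or Cd4 T cells, as do those of intermediate (3.46%; 2.27 to 5.03) and monocyte-like phagocytes (3.39%; 1.91 to 5.54). The positive T cells there were all Cd4 T cells without Foxp3 (4 of 53 thinned cells). The macrophage-like interval lies above those of Foxp3 T cells (0 to 4.02%) and NK cells (0.0146 to 3.18%). Those of intermediate and monocyte-like phagocytes overlap both. In CPM of pooled UMIs, macrophage-like cells of that library stood at 34.0 (31.3 to 36.8). The Foxp3 or Cd4 T cells stood at 8.34 (3.81 to 15.8).

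Each of the 3 phagocyte classes had less Cx3cr1 in the TMEM16F KO library, by similar factors. Macrophage-like cells were 3.52-fold lower (3.21 to 3.86), intermediate cells 3.08-fold lower (2.55 to 3.74) and monocyte-like cells 3.32-fold lower (2.22 to 5.06). The sizes of these classes were close in the 2 libraries, while those of the clusters described below were not. The classes are ranges cut from a score, and 486 vector control and 421 TMEM16F KO phagocytes lay within 0.05 of the lower limit of the macrophage-like class. Phagocytes with a mean score over 0.2 for markers of non-classical monocytes, which carry much CX3CR1 in blood, were few. A few high markers can be enough for this score, and the cells were shallow, at medians of 3688 and 3876 UMIs. The 28 vector control cells of this kind had 11 Cx3cr1 UMIs (104 CPM; 51.8 to 186) and the 17 TMEM16F KO cells had 10 (135 CPM; 64.9 to 249). Their ratio of 1.30 (0.496 to 3.38) covers level values and leaves the order of the libraries unsettled for these cells.

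Along the score itself, Cx3cr1 was higher the further the macrophage markers led those of monocytes, in both libraries. The phagocytes of both libraries were divided into 5 bins of equal size by their macrophage score minus their monocyte score. From the most monocyte-like to the most macrophage-like bin, the vector control cells had 34.1, 49.2, 74.0, 109 and 153 CPM. The TMEM16F KO cells had 12.1, 14.9, 20.6, 26.8 and 47.1 CPM. In every bin the TMEM16F KO level was lower, by 2.82-, 3.31-, 3.59-, 4.06- and 3.24-fold. The most macrophage-like TMEM16F KO cells, at 47.1 CPM (42.2 to 52.5), stood near the second vector control bin, at 49.2 CPM (43.6 to 55.3).

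**Figure D2:**
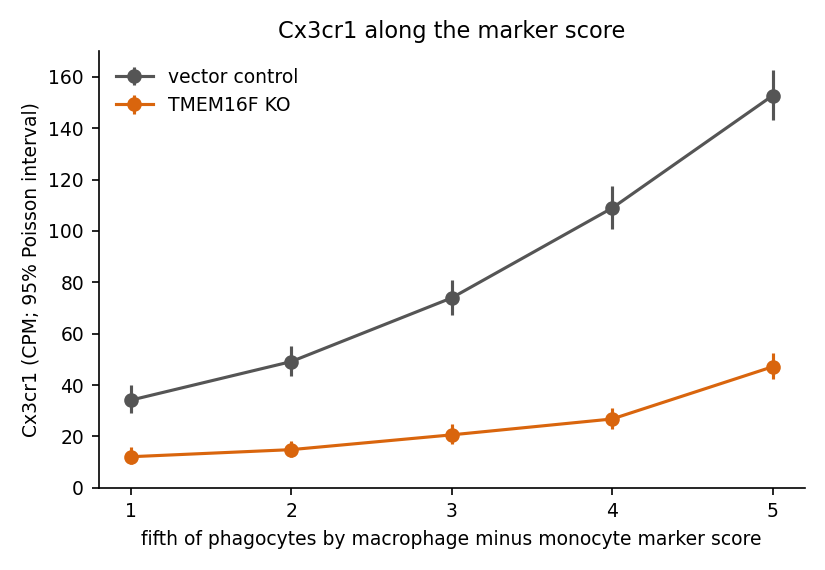
Cx3cr1 level (y axis, CPM) in 5 bins of phagocytes ordered by macrophage minus monocyte marker score (x axis) in the vector control (grey) and TMEM16F KO (orange) libraries; bars are 95% Poisson intervals. Both lines are higher toward the macrophage end, from 34.1 to 153 CPM and from 12.1 to 47.1 CPM, and the orange line is below the grey one in each bin.

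Cells were also grouped by clustering of the whole transcriptome with Cx3cr1 left out of the clustering genes, which gave 23 clusters. Of these, 10 were phagocyte clusters, which held 96.9% of the phagocytes. Their make-up differed between the libraries, with cluster 9 at 9.95% of vector control and 1.30% of TMEM16F KO phagocytes, cluster 11 at 8.21% and 1.95%, and cluster 5 at 9.60% and 14.2%. With cluster levels weighted by the vector control's make-up in both libraries, the phagocyte ratio was 0.320, against 0.294 without. Cx3cr1 was lower in the TMEM16F KO library in 9 of the 10, and for 7 of them the interval of the ratio lay below 1. Cluster 5, led by Pf4, Ccl12 and Mrc1, the last encoding the mannose receptor CD206, had the highest vector control level, at 171 CPM (158 to 185), against 44.9 CPM (39.1 to 51.3) in the TMEM16F KO library. Cluster 12, led by Ccl8, Selenop and Apoe, had 148 and 33.8 CPM. Cluster 1, led by the elastase Mmp12 with Pf4 and Arg1, had 106 and 24.9 CPM. The differences in these 3 macrophage-rich clusters were 3.81-, 4.38- and 4.24-fold.

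Clusters 0, 2, 8, 13 and 9 had lower vector control levels than these 3. Their mean macrophage minus monocyte scores were 0.036, 0.041, 0.153, -0.270 and 0.258. Those of clusters 5, 12 and 1 were 0.381, 0.498 and 0.363. Cluster 0, led by Ly6i and Il1b, had 49.0 CPM in the vector control and 13.1 CPM in the TMEM16F KO library, 3.74-fold lower (2.999 to 4.69). Cluster 2, led by Inhba, which encodes the activin A subunit, and Tgfbi, had 54.7 and 23.5 CPM, 2.32-fold lower (1.81 to 2.99). Cluster 8, led by Lrmda and Dock4, had 74.8 and 12.0 CPM, 6.22-fold lower, with a wide interval (3.003 to 14.1) from 34 and 10 UMIs. The monocyte cluster 13, led by Chil3 and Plac8, had 40.2 and 22.3 CPM, and its interval includes no difference (0.769- to 4.44-fold lower; 16 and 10 UMIs). The same holds for cluster 9, led by Cmss1, at 55.6 and 26.1 CPM, whose cells had medians of only 1004.5 and 1028 UMIs and numbered 308 and 40.

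Cluster 17 was the 1 phagocyte cluster in which Cx3cr1 was not lower. It stood at 47.4 CPM (31.3 to 69.0; 27 UMIs in 77 cells) in the vector control and 60.0 CPM (42.0 to 83.1; 36 UMIs in 40 cells) in the TMEM16F KO library, a ratio of 1.26 (0.747 to 2.17). Over all cells of the cluster, 77.0% of them called phagocytes, the mean T cell marker score was 0.118. Whether markers of T cells and of macrophages stood together in single cells was not tested. The median depths of its phagocytes were 4830 and 12730 UMIs. The part of these values in its ratio was not tested.

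**Figure D3:**
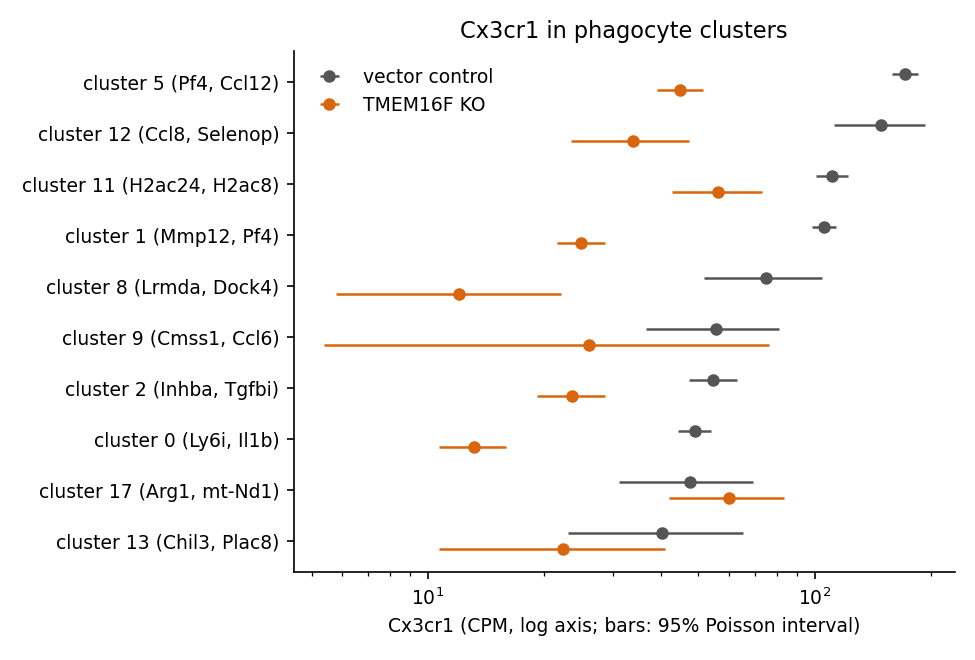
Cx3cr1 level (x axis, CPM, log scale) in the 10 phagocyte clusters (y axis, with their 2 leading genes) of the vector control (grey) and TMEM16F KO (orange) libraries; bars are 95% Poisson intervals. The orange point is left of the grey one in 9 clusters, and in cluster 17, which has T cell markers as well, it is at 60.0 against 47.4 CPM.

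Cycling phagocytes had more Cx3cr1 than the others in both libraries and differed less between them. Phagocytes with UMIs of at least 3 cycling markers numbered 410 in the vector control and 181 in the TMEM16F KO library and had 122 CPM (114 to 131) and 65.5 CPM (57.0 to 75.0), 1.87-fold lower (1.60 to 2.18). The remaining 2685 and 2894 phagocytes had 77.6 CPM (74.0 to 81.3) and 21.1 CPM (19.4 to 22.9), 3.68-fold lower (3.34 to 4.05). The 2 intervals do not overlap. Cycling cells had medians of 15760.5 and 17670 UMIs, well above the 6428 and 7686.5 UMIs of the others. The histone-led cluster 11 gave similar values, at 111 CPM (254 cells) and 56.3 CPM (60 cells), 1.97-fold lower (1.49 to 2.65). Without the cycling cells the phagocyte difference was as large as with them.

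Markers of other cell types were also counted in the phagocytes. The summed level of 11 T cell markers was 176 CPM in the vector control and 211 CPM in the TMEM16F KO phagocytes, that of 9 NK cell markers 54.3 and 76.5 CPM, and that of 12 dendritic cell markers 269 and 250 CPM. The 11 neutrophil markers summed to 366 and 650 CPM, with 1 of them at 0 in the TMEM16F KO library. The median phagocyte had 0 UMIs of the T cell and of the NK cell markers in both libraries. In phagocytes with under 2 T or NK cell markers Cx3cr1 stood at 87.8 and 24.2 CPM, 3.63-fold lower (3.26 to 4.04), so the difference was as large without the cells that carried 2 or more such markers. The part of the neutrophil markers was not tested.

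CD8 T cells did not share the lower level. They had 188 Cx3cr1 UMIs in the vector control and 267 in the TMEM16F KO library, a ratio of CPM of 1.22 (1.01 to 1.48). A UMI was found in 19.8% and 21.1% of the cells, or, after thinning, in 10.7% (8.34 to 13.4) of 619 and 11.7% (9.55 to 14.1) of 823 cells, shares whose intervals overlap. Transcripts of phagocytes were more abundant in the CD8 T cells of the TMEM16F KO library. The 12 macrophage markers summed to 728 CPM in the vector control and 1399.9 CPM in the TMEM16F KO library, Apoe stood at 102 and 321 CPM, and C1qa at 148 and 236 CPM. Their part in the CD8 T cell value was not tested. Thinned CD8 T cells with a Cx3cr1 UMI had a mean of 0.606 C1qa UMIs in the vector control, against 0.458 in those without. In the TMEM16F KO library the means were 0.781 and 0.722. The means of C1qb were 0.561 with and 0.423 without in the vector control and 0.396 and 0.710 in the TMEM16F KO library, and those of Apoe were 0.333 and 0.333, then 0.896 and 1.01. The order of the means thus varied by gene and library.

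Among effector genes of the CD8 T cells, some averaged fewer and others more UMIs in cells with a Cx3cr1 UMI. Gzmb, a granzyme, averaged 2.30 UMIs in the 66 vector control cells with a Cx3cr1 UMI and 5.13 in the 553 without. In the TMEM16F KO library it averaged 6.97 and 7.61 UMIs in 96 and 727 cells. Of the listed genes that were read, only Zeb2 changed order between the libraries. It averaged 0.212 with and 0.342 without in the vector control, then 0.583 and 0.521. No interval was computed for these means. Prf1, the gene of perforin, averaged 1.12 and 1.08 UMIs in the vector control and 1.80 and 1.26 UMIs in the TMEM16F KO library. S1pr5, which marks circulating effector cells, had 0 UMIs in all of these cells.

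Of the 10 genes listed for the fractalkine axis, the ligand, its proteases, integrins it binds and signalling partners of the receptor, all 10 had at least 20 UMIs in phagocytes. None was 2-fold lower or higher, where 1.95% of 13929 measured genes were 2-fold lower and 3.04% 2-fold higher in the TMEM16F KO library. Their median log2 ratio was -0.015, beside 0.036 over all measured genes. Of the 10, 5 were lower and 5 higher, beside 45.4% and 54.6% of all measured genes. With TMM scaling factors 7 were lower and 3 higher, beside 7365 lower and 6564 higher among all measured genes. Under these factors every log2 ratio is smaller by the same small amount (a shift of -0.058), and Adam17 and Itgb1 change sides. The ligand gene Cx3cl1 was read rarely, with 52 UMIs in the vector control and 44 in the TMEM16F KO library over all kept cells, or 1.21 and 0.959 CPM, a ratio of 0.794 (0.519 to 1.21). Fibroblasts or stroma had 8 and 3 of these UMIs (6.60 and 6.27 CPM). Phagocytes had 20 and 12.

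The proteases that cleave the ligand were close to level. Adam10 stood at 89.95 CPM in the vector control and 75.4 CPM in the TMEM16F KO phagocytes (log2 ratio -0.25) and Adam17 at 78.7 and 80.9 CPM. Gnai2, a subunit of the inhibitory G protein through which chemokine receptors signal, was at 1059 and 997 CPM, Gnai3 at 67.6 and 70.6 CPM, Gnb1 at 335 and 319.6 CPM, and Arrb2, a beta-arrestin, at 128 and 125 CPM. Of the integrin genes, Itgb1 was at 154 and 155 CPM and Itgav at 46.1 and 52.3 CPM. Itgb3 was low at 0.716 and 1.27 CPM. The receptor gene was thus far lower in the TMEM16F KO phagocytes while most of the genes listed around it differed little.

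Most of the other chemokine and chemoattractant receptors were higher instead, some by little. Of 17 listed, 14 were measured, and 13 of these were higher in the TMEM16F KO phagocytes, beside 54.6% of all measured genes, with a median log2 ratio of 0.32. The formyl peptide receptor Fpr1 stood at 2.96 CPM in the vector control and 9.14 CPM in the TMEM16F KO library (log2 ratio 1.62), and the scavenging receptor Ackr3 at 1.64 and 3.74 CPM (1.19). The 1 lower member was Ccr2, the receptor that brings classical monocytes into tissue, at 196 and 147 CPM (-0.42). The next lowest, Cxcr4, was at 97.6 and 102 CPM (0.07). The interval of its ratio includes 1 (0.997 to 1.11), as does that of Cxcr3 (0.809 to 1.90). The part of the T cell, NK cell and neutrophil markers given above in these values was not tested.

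The genes that went with Cx3cr1 from cell to cell were found by Pearson's r across the phagocytes of each library, on log-transformed UMIs per 10000, over 8431 genes with a mean of at least 0.05 UMIs per cell in both. The r values are descriptions. The cells of a library share their preparation and differ in depth. The median r over these genes was above 0, at 0.047 in the vector control and 0.015 in the TMEM16F KO library. The 15 genes most like Cx3cr1 had r from 0.151 to 0.269. The highest was Cd81, a tetraspanin, with r of 0.269 in the vector control and 0.230 in the TMEM16F KO library. Thinned phagocytes with a Cx3cr1 UMI held on average 1.49 Cd81 UMIs in the vector control, against 1.01 in those without, and 1.23 against 0.604 in the TMEM16F KO library.

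Complement and other macrophage genes made up part of the 15. C1qa and C1qc, subunits of complement C1q, had r of 0.263 and 0.260 in the vector control and 0.174 and 0.176 in the TMEM16F KO library. Cells with a Cx3cr1 UMI held 14.5 C1qa UMIs, against 9.16 in cells without in the vector control, and 16.1 against 8.90 in the TMEM16F KO library. Ms4a7, a membrane protein of macrophages, had 2.13 against 1.08 UMIs in the vector control and 2.38 against 1.33 in the TMEM16F KO library. The monocyte chemoattractant Ccl12 had 3.52 against 1.77 and 2.67 against 1.48 UMIs. C1qa, C1qc and Ms4a7 are also among the markers by which macrophage-like cells were told apart.

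Fcrl2, an Fc receptor-like gene, had the widest relative gap of the 15 in both libraries, with 0.185 UMIs in cells with Cx3cr1 against 0.0552 in those without in the vector control, and 0.132 against 0.0463 in the TMEM16F KO library. The others were Cd72 and Slamf9, receptors of the C-type lectin and SLAM families, Ly86, the partner of the Toll-like receptor homologue CD180, Rgs10, a regulator of G protein signalling, the chaperone gene Hsp90b1, the ribonuclease Rnase4, Ntpcr, and the proliferation genes Ccnd1 (cyclin D1) and Stmn1 (stathmin). Their r lay between 0.182 and 0.240 in the vector control and between 0.151 and 0.186 in the TMEM16F KO library.

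Each of these companions differed less between the libraries than Cx3cr1, which was itself chosen for its difference. Of the 15, 13 were lower in the TMEM16F KO library, beside 45.4% of all measured genes, and their median log2 ratio was -0.21. None was 2-fold lower, which is near the 1.95% of all measured genes. Stmn1 passes 2-fold under each of the other 3 scalings tried (TMM, median-of-ratios, and without mitochondrial, ribosomal protein and haemoglobin genes). The 2 that were higher were Cd72 (0.05, below 0 with TMM scaling factors) and Ms4a7. Stmn1 came nearest at 306 and 157 CPM (-0.97), followed by Cd81 at 424 and 263 CPM (-0.69), Slamf9 at 101 and 63.7 CPM (-0.67) and Fcrl2 at 28.7 and 18.5 CPM (-0.63). C1qa was nearly level at 3651 and 3351 CPM (-0.12), and Ms4a7 was higher in the TMEM16F KO library, at 428 and 493 CPM (0.20). These levels are pooled over all phagocytes of a library. The level of Cx3cr1 in cells selected for these genes was not measured.

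**Figure D4:**
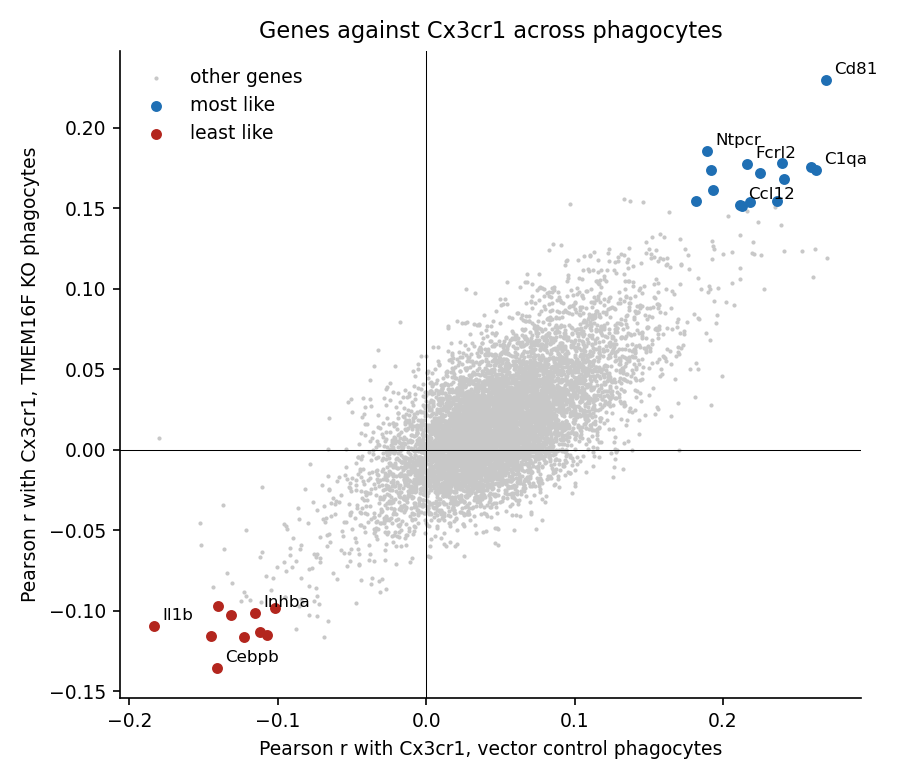
Pearson's r with Cx3cr1 across vector control phagocytes (x axis) and across TMEM16F KO phagocytes (y axis), 1 point per gene for 8431 genes; the 15 genes most like Cx3cr1 are blue and the 10 least like it red. Cd81 lies farthest out at 0.269 and 0.230, and Il1b has -0.183 and -0.109.

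The genes least like Cx3cr1 included inflammatory genes. The 10 were Cebpb, a transcription factor of inflammatory and monocytic cells, Plaur, the urokinase receptor, Ier3, F10, which encodes coagulation factor X, the cytokines Il1b and Osm, Arg2, Inhba, the beta-glucan receptor Clec7a and Cmss1. Il1b, which encodes interleukin 1 beta, had r of -0.183 in the vector control and -0.109 in the TMEM16F KO library. Phagocytes with a Cx3cr1 UMI held 2.75 Il1b UMIs, against 5.84 in those without in the vector control, and 3.86 against 7.21 in the TMEM16F KO library. Inhba had 0.0241 against 0.202 and 0.104 against 0.432 UMIs. Of these 10, 9 were higher in the TMEM16F KO phagocytes, beside 54.6% of all measured genes, with a median log2 ratio of 0.36 over the 10. Inhba, at 47.6 and 116 CPM (log2 ratio 1.29), was the only one of the 10 past 2-fold.

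By the size of the difference between the libraries, the 10 genes nearest to Cx3cr1 were 8 histone genes, Ptgs1 and 5430437J10Rik. All 10 are lower by more than 2-fold because they were picked for it, where 1.95% of the measured genes are. The histone genes, H1f5 at 95.1 and 27.4 CPM and H2ac24 at 155 and 43.7 CPM among them, are made mainly in dividing cells, and their near-identical copies make the values of single copies uncertain. Ptgs1 encodes the cyclooxygenase COX-1, which makes prostaglandins from arachidonic acid. It stood at 25.4 CPM in the vector control and 7.71 CPM in the TMEM16F KO library, 3.30-fold lower, and its r with Cx3cr1 was 0.1997 in the vector control and 0.046 in the TMEM16F KO library. H2ac24 had r of 0.116 and 0.118.

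Genes that accompany CX3CR1 in microglia and resident macrophages went with Cx3cr1 in these cells but were only a little lower. Of 22 listed, 20 were measured, and 18 of these had a positive r in both libraries, beside 55.8% of all measured genes and 67.6% of those with a mean of at least 0.05 UMIs per cell. In the TMEM16F KO phagocytes 15 were lower and 5 higher, beside 45.4% and 54.6%, 0 were 2-fold lower, and the median log2 ratio was -0.17. Gpr34, a lysophosphatidylserine receptor, was at 9.40 and 6.27 CPM (-0.58), and Lyve1 at 0.784 and 0.500 CPM (-0.65). Lyve1 had only 23 and 15 UMIs, and the interval of its ratio includes 1 (0.310 to 1.28). Cd81 was the lowest of the list. The purinergic receptor P2ry12 was at 9.44 and 7.94 CPM (-0.25), Tmem119 at 35.2 and 32.0 CPM (-0.13) and Csf1r, the receptor for the macrophage growth factor, at 188 and 165 CPM (-0.19). At the other end, Timd4 was at 0.613 and 1.43 CPM (1.23), and Mef2a at 128 and 144 CPM (0.18). Timd4 had only 18 and 43 UMIs. In macrophage-like phagocytes, with part of these few UMIs, it was lower in the TMEM16F KO library (-1.47).

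Monocyte genes differed by kind. Of 12 genes of classical monocytes, 9 had a negative r in both libraries, beside 12.1% of all measured genes and 7.46% of those with a mean of at least 0.05 UMIs per cell. Of the 12, 9 were higher in the TMEM16F KO phagocytes, beside 54.6% of all measured genes, with a median log2 ratio of 0.47. Vcan was at 7.53 and 13.3 CPM (0.82), while Chil3 was lower, at 47.5 and 24.3 CPM (-0.97). Of 16 genes of non-classical monocytes, 10 were lower and 6 higher, beside 45.4% and 54.6% of all measured genes, with a median of -0.09. Ear2 was the 1 that was 2-fold lower, beside 1.95%, at 6.92 and 2.80 CPM (-1.30), followed by Treml4 at 4.84 and 3.14 CPM (-0.63). Apoc2 was the highest, at 0.341 and 0.634 CPM (0.90), followed by Adgre4 at 0.954 and 1.57 CPM (0.72). Nr4a1, the transcription factor that these monocytes require, stood at 150.1 and 163 CPM (0.12).

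All but 1 of 18 genes of tumour macrophage states were higher in the TMEM16F KO phagocytes, beside 54.6% of all measured genes, with a median log2 ratio of 0.57, and 3 were past 2-fold, beside 3.04%. Saa3, an acute phase protein, was at 5.08 and 20.6 CPM (2.02), Gdf15 at 29.0 and 91.0 CPM (1.65) and Nos2, the inducible nitric oxide synthase, at 33.2 and 71.0 CPM (1.10). Arg1 was level at 2376 and 2348 CPM (-0.02). Of these 18 genes, 11 had a negative r with Cx3cr1 in both libraries, beside 12.1% of all measured genes. The mannose receptor gene Mrc1 was one of 3 with a positive r in both (0.211 and 0.113), and it stood at 219 and 225 CPM (0.04), which falls on the other side of 0 with TMM scaling factors.

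Transcription factors of macrophages were mostly near level. Of 15 listed, 3 were lower and 12 higher in the TMEM16F KO phagocytes, beside 45.4% and 54.6% of all measured genes, with a median log2 ratio of 0.20. None was past 2-fold, but Batf3 passes it with TMM factors and without mitochondrial, ribosomal protein and haemoglobin genes. Spi1, the gene of PU.1, the factor that specifies myeloid cells, stood at 449 and 445 CPM (-0.01). Maf, a factor of mature macrophages, had the highest r with Cx3cr1 of the 15 in both libraries (0.261 and 0.108), and it stood at 156 and 169 CPM (0.11). Batf3 was at 25.1 and 13.01 CPM (-0.95), Atf3 at 767 and 689 CPM (-0.15), Nr1h3 at 11.6 and 15.9 CPM (0.45) and Id3 at 37.4 and 62.1 CPM (0.73).

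Genes of the TGF-beta pathway, which microglia need to keep their identity, were close to level. Of 14 listed, 12 were measured, 5 lower and 7 higher, beside 45.4% and 54.6% of all measured genes, with a median log2 ratio of 0.03, which turns to -0.03 with TMM scaling factors. The receptor gene Tgfbr2 had r of 0.206 and 0.104 with Cx3cr1 and stood at 41.1 and 35.9 CPM, and Tgfbr1 at 44.2 and 37.8 CPM (-0.22). Itgb8 was 2-fold lower at 0.545 and 0.267 CPM (-1.03), from few UMIs. Nrros was the highest at 102 and 126 CPM (0.31).

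Cell cycle genes went with Cx3cr1 across cells and were lower in the TMEM16F KO library as well. All 15 had a positive r with it in both libraries, beside 55.8% of all measured genes. All 15 were lower in the TMEM16F KO phagocytes, 7 of them by 2-fold or more (1.95% of all measured genes), with a median log2 ratio of -0.97. Rrm2, a subunit of ribonucleotide reductase, was at 31.2 and 11.9 CPM (-1.38), and Pcna was the least different, at 144 and 123 CPM (-0.22). The markers by which cycling phagocytes were called are all among these 15 genes. The lower levels and the smaller number of cycling phagocytes given above are therefore not separate results.

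Of 15 genes that respond to tissue dissociation, 5 were lower and 10 higher, the latter near the 54.6% of all measured genes, with a median log2 ratio of 0.17. The 2 past 2-fold, beside 1.95% of all measured genes, were the heat shock genes Hspa1a, at 275 and 133 CPM (-1.05), and Hspa1b, at 240.4 and 112 CPM (-1.10), near-identical copies between which reads can be split. Egr1 was the highest, at 149 and 247 CPM (0.73). Genes of long-lived effector lymphocytes, which are not expected as a group in phagocytes, had 9 of 11 measured, 7 of them higher and 2 lower, beside 54.6% and 45.4% of all measured genes, with a median of 0.36. S1pr1 was at 3.101 and 5.70 CPM (0.88) and Klf2 at 468 and 379 CPM (-0.31).

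**Figure D5:**
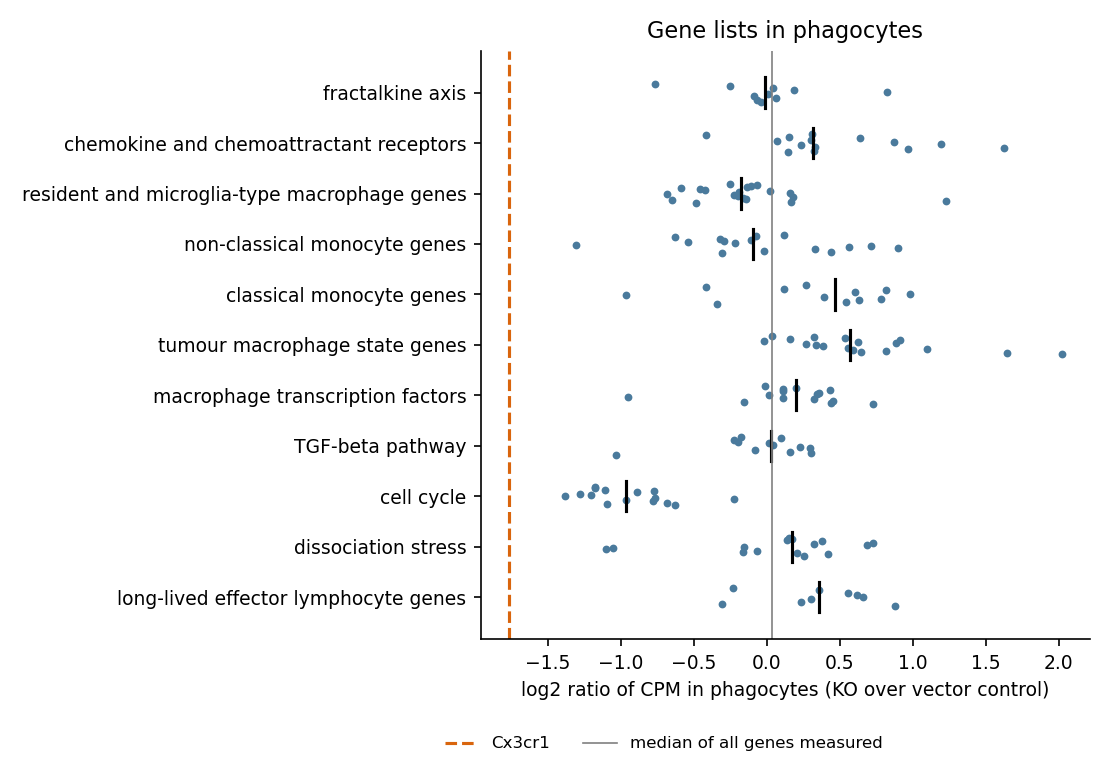
Log2 ratio of phagocyte CPM, TMEM16F KO over vector control (x axis), for the measured members of 11 gene lists (y axis; points are genes, black bars list medians); the dashed line is Cx3cr1 and the grey line the median of all measured genes. No list member is as low as Cx3cr1, at -1.77, and the cell cycle list, with a median of -0.97, comes nearest.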

How the data were processed

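Both deposited matrices contain raw UMI counts of each gene in each barcode, without normalisation. Cell Ranger 8.0.0 wrote them, per the file headers. The submitters' processing notes name Seurat 3.1.1 and the build mm10. Which gene annotation was counted against was not given in the sources used here (32236 of 34290 gene IDs are in GENCODE M21). Libraries were 10x Genomics 3′ droplet libraries, per the labels' protocols.

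Barcodes with under 200 genes or over 20% mitochondrial UMIs (4 vector control, 18 TMEM16F KO) were left out. The automatic threshold of Scrublet marked 0 barcodes in either library, so the highest scores were removed at 0.8% per 1000 barcodes (221 and 287). The study states a count of 10782 cells in its design text, the files hold 11246 barcodes, and the filters left 10716. Each cell was classed by the mean of its marker levels, each divided by that marker's 90th percentile of non-zero values and limited to 1. A class needed 0.10 and a lead of 0.05, and 9.21% of vector control and 9.70% of TMEM16F KO cells stayed without one. Phagocytes were macrophage-like with a macrophage minus monocyte score of at least 0.15 and monocyte-like under -0.05, limits set after the data were seen. The names are rebuilt here and can differ from the study's. Clustering used 2000 variable genes without Cx3cr1, 30 principal components, 15 neighbours and Leiden resolution 1, with no batch correction. Phagocyte clusters were those with at least 30 cells in each library and at least 50% phagocytes.

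CPM is UMIs of a gene per 1e6 UMIs of the class. Genes were measured with at least 20 UMIs in the phagocytes of both libraries together. Named genes were the 15 with the highest lower r of the 2 libraries, the 10 with the lowest higher r, the 10 nearest in ratio (at least 200 UMIs), the fractalkine axis, and the 2 highest and 2 lowest of each other list; members named beyond these were chosen after their values were seen. Some genes that the rule names are not reported here. The gene and the lists were chosen with earlier results of these data known. Lrrc33 is not listed under that symbol and was dropped from the TGF-beta list, which holds Nrros. With 1 library per group no test was run. The steps were tested on simulated data. Alternatives covered classes, doublets, scaling, depth, cluster weights and filters. Tools were scanpy 1.11.5, leidenalg 0.10.2, scipy 1.17.1, Python 3.11.15, numpy 2.4.6, igraph 0.11.9, anndata 0.12.19, pandas 2.3.3, matplotlib 3.10.9, scikit-learn 1.9.0 and, for TMM scaling factors alone, edgeR 4.0.16.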

Additional observations from a re-analysis of the deposited data

Results flagged for a closer look

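Cx3cr1 was lower in the TMEM16F KO library in phagocytes but not in CD8 T cells. The ratio of the TMEM16F KO to the vector control level was 0.294 (0.271 to 0.319) in phagocytes and 1.22 (1.01 to 1.48) in CD8 T cells. The thinned shares of CD8 T cells with a UMI, 10.7% (8.34 to 13.4) and 11.7% (9.55 to 14.1), have overlapping intervals. The difference between these ratios was not tested, since each rests on 1 library per group.

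Within the phagocytes, cluster 17 stood apart with a ratio of 1.26 (0.747 to 2.17), against 0.294 over the phagocytes together. Its interval includes 1, and this difference was not tested either. With cluster 17 left out, the phagocyte ratio was 0.284.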

How the results depend on the processing

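The Cx3cr1 ratio in phagocytes, 0.294, lay between 0.272 and 0.370 under 14 alternatives. It moved to 0.370 with the phagocyte clusters weighted alike, and to 0.320 with cluster levels weighted by the vector control's clusters, an alternative chosen after seeing the data, as were leaving out cycling cells or cluster 17 and stricter class calls. In macrophage-like cells 14 alternatives gave 0.259 to 0.302. In CD8 T cells 8 gave 1.13 to 1.26. The ratio of thinned shares, 0.337, became 0.177 when at least 2 Cx3cr1 UMIs were asked of a cell (0.774% and 4.39%). Counts of genes 2-fold lower and higher, 272 and 423, became 2386 and 3854 with no minimum of UMIs and 141 and 102 with at least 100, so the excess of higher genes rests on genes with few UMIs. TMM factors gave 318 and 352. Of the 15 genes most like Cx3cr1, Spearman's correlation shared 10, phagocytes from clusters 12, thinned cells 6 and cluster means 1, so single names in that list depend on the measure. Keeping doublet candidates was not run for the cluster counts. No paired analysis was possible because each group is 1 library. Depth limits the classes with under about 20 Cx3cr1 UMIs.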
